A study of Homo sapiens with 12 samples.

Results

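A set of 5 genes of the vasoactive peptide systems was followed under SWTX-143, a small molecule that irreversibly blocks TEAD, the family of DNA-binding partners of YAP and TAZ. They encode the precursors of adrenomedullin (ADM), B-type natriuretic peptide (NPPB), endothelin-1 (EDN1) and endothelin-2 (EDN2), and the endothelin-converting enzyme ECE1. They were taken by symbol from the 27064 symbols that both count tables list, and were selected on their levels in the 2 lines and on their log2 fold changes with the inhibitor. For these 5 genes the same values are therefore given as a description, with no p-value. The cells were NCI-H226, a mesothelioma line written H226 here, and ACHN, a line from a kidney cancer, both described by the submitters as NF2-deficient, a state in which the Hippo pathway no longer restrains YAP and TAZ. The treated groups, H226 SWTX-143 and ACHN SWTX-143, were kept overnight with the compound at 100 nM, and the control groups, H226 DMSO and ACHN DMSO, received the solvent. Each of the 4 groups held 3 poly(A) RNA libraries, read as paired ends on a BGISEQ-500. Each line is a single cultured tumour line, and its DMSO libraries carry the same NF2 deficiency as its treated libraries.

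All these peptides act on vessels. Adrenomedullin widens vessels and steadies the endothelial barrier, through the receptor CALCRL joined to one of the RAMP proteins, and it is amidated by PAM before it becomes active. B-type natriuretic peptide, best known from the stretched heart, is cut from its precursor by CORIN or FURIN, signals through the guanylate cyclase NPR1 and is removed by the clearance receptor NPR3. Endothelins constrict vessels through EDNRA and EDNRB, and ECE1 cuts them from their inactive big endothelin forms. In cultured tumour lines these genes are read as RNA only, and neither secreted peptide nor receptor signalling was measured.

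The H226 libraries held 9690980 to 11262663 counts each and the ACHN libraries 10113810 to 11206457. Levels are in CPM, the count scaled to a common library size after TMM scaling of all 12 libraries together. The ± sign marks the SD of CPM values over 3 libraries and the SE of a log2 fold change between 3 and 3. Whether a group's libraries are separate cultures is not stated in the labels. A p-value therefore speaks of the spread among these libraries alone, and that spread may be technical. The 8 mesothelial markers summed to between 3818 and 4053 CPM in H226 SWTX-143 libraries and between 3272 and 3398 CPM in H226 DMSO libraries, and all 8 averaged at least 1 CPM in both groups. The 6 kidney markers summed to between 742 and 796 CPM in ACHN SWTX-143 libraries and between 725 and 755 CPM in ACHN DMSO libraries, with EMX2 at 0. The mesothelial sums did not overlap between treated and DMSO libraries, and their part in the peptide results was not tested. As a check of the inhibitor, the TEAD target CTGF was at 13.9 ± 1.22 CPM in H226 SWTX-143 against 79.9 ± 7.44 CPM in H226 DMSO, and at 21.0 ± 2.06 CPM in ACHN SWTX-143 against 109 ± 1.48 CPM in ACHN DMSO. CYR61, another classical target, was at 352 ± 6.45 CPM in H226 SWTX-143 against 932 ± 34.5 CPM in H226 DMSO, and at 269 ± 11.6 CPM in ACHN SWTX-143 against 646 ± 11.1 CPM in ACHN DMSO.

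The stretches upstream of ADM and EDN2 are shown because each of these peptide genes was lower with SWTX-143 in at least 1 line. Both are the 250 bases before a RefSeq transcription start on GRCh38.p14, a later build than the hg19 named for the counts, and both read 5′ to 3′ on the gene's own strand. The ADM stretch is chr11:10304823-10305072 on the plus strand, and the EDN2 stretch is chr1:41484684-41484933 on the minus strand. Capitals mark matches to the TEAD core GGAATG or to the TATA letters TATAA, on either strand.
ADM: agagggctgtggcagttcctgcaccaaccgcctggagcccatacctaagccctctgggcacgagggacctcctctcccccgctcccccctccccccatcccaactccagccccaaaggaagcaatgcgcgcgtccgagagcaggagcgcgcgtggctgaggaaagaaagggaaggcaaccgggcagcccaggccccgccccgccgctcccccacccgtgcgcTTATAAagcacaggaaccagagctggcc
EDN2: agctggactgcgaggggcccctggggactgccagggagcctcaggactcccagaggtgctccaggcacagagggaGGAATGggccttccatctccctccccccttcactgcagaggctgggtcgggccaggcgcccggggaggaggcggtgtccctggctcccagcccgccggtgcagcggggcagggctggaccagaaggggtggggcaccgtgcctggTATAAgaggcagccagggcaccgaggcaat
The EDN2 stretch held 1 GGAATG, at bases 175 to 170 before the start, and TATAA at bases 30 to 26. The ADM stretch held no GGAATG, no AP-1 motif TGANTCA and no ACGTG, 1 form of the hypoxia response core. The form GCGTG was not part of the search, but the printed ADM stretch holds it, in the run gcgcgtggctg. Its share over all windows was not counted, and no absence of that core is stated for any window. The capitals of the ADM stretch are TATAA at bases 27 to 23 before the start. The overlapping TTATA of the other strand, at bases 28 to 24, is also in capitals. Of the 3 EDN1 windows, 1 held the TEAD core, as CATTCC at bases 129 to 124, and 2 held ACGTG. The 4 ECE1 windows held none of the letters searched. The TATAA search was added after the sequences had been read. Over all 35116 RefSeq promoter windows of this length, searched on both strands, 11.9% held GGAATG, 6.57% held TGANTCA, 18.5% held ACGTG and 18.9% held TATAA. RefSeq entries were found for 4 of the 5 genes, in 9 windows, for ADM, EDN1, EDN2 and ECE1. A match to these letters describes the sequence and is not a measured binding site.

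ADM, the adrenomedullin precursor, had lower RNA under SWTX-143 in both lines. In H226 it had 432, 443 and 436 counts in SWTX-143 libraries, against 1555, 1597 and 1297 counts in DMSO libraries. Scaled to library size these were 42.7, 41.2 and 40.9 CPM in SWTX-143 libraries and 147, 152 and 142.9 CPM in DMSO libraries. Every treated library lay far below every DMSO library, and the 3 libraries of each group were close together. The mean was 41.6 ± 0.972 CPM in H226 SWTX-143 and 147 ± 4.60 CPM in H226 DMSO, a log2 fold change of −1.83 ± 0.05, or 3.57-fold lower with the inhibitor. In bulk libraries, fewer cells carrying a transcript and less of it per cell cannot be told apart.

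In ACHN the ADM transcript was scarcer from the start. Its counts were 63, 42 and 46 in SWTX-143 libraries, against 104, 127 and 134 in DMSO libraries. These correspond to 5.32, 3.95 and 4.02 CPM in SWTX-143 libraries and 9.53, 11.8 and 11.6 CPM in DMSO libraries. The groups again did not overlap, with the first treated library the highest of its group and the first DMSO library the lowest of its own. The log2 fold change was −1.32 ± 0.15, or 2.49-fold lower in ACHN SWTX-143. The H226 effect minus the ACHN effect was −0.52 ± 0.15 on the log2 scale. ADM was thus 9.38-fold higher in H226 SWTX-143 than in ACHN SWTX-143 and 13.4-fold higher in H226 DMSO than in ACHN DMSO.

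NPPB, the precursor of B-type natriuretic peptide, was an H226 transcript. It had 485, 555 and 513 counts in H226 SWTX-143 libraries, against 2072, 2148 and 1653 counts in H226 DMSO libraries. In CPM these were 47.9, 51.6 and 48.1 in SWTX-143 libraries and 196, 204 and 182 in DMSO libraries. Every treated library lay far below every DMSO library. The mean was 49.2 ± 2.09 CPM in H226 SWTX-143 and 194 ± 11.3 CPM in H226 DMSO, a log2 fold change of −1.99 ± 0.05, or 3.97-fold lower.

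In ACHN, NPPB stood at the limit of detection. No count was seen in the 3 SWTX-143 libraries, against 2, 4 and 3 counts in the 3 DMSO libraries. With 3 pooled counts as the upper limit that a count of 0 allows, 0.0885 CPM over the ACHN SWTX-143 group, the gene was at least 3.06-fold lower than its pooled 0.271 CPM in ACHN DMSO. This limit covers counting error of the SWTX-143 group only and takes the few DMSO counts as exact, so the true bound is lower. The gene was too low to be tested in ACHN. Between the lines, NPPB was 714-fold higher in H226 DMSO than in ACHN DMSO, a ratio that rests on 9 ACHN counts. Heart muscle, the tissue best known for NPPB, was looked for through 8 cardiomyocyte markers. They summed to between 3.19 and 4.55 CPM in H226 SWTX-143 and between 3.02 and 4.52 CPM in H226 DMSO. MYH6, MYH7 and MYBPC3 were at 0 in all 12 libraries, and the other 5 had counts in both H226 groups. The highest in H226 was MYL7, at 2.07 ± 0.398 CPM in SWTX-143 and 1.71 ± 0.380 CPM in DMSO libraries, with no count in ACHN. TNNT2 and TNNI3 averaged below 1 CPM in both H226 groups.

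EDN2 showed the opposite preference between the lines, and its RNA differed with treatment in ACHN. It had 185, 160 and 190 counts in ACHN SWTX-143 libraries, against 658, 724 and 843 counts in ACHN DMSO libraries. In CPM these were 15.6, 15.1 and 16.6 in SWTX-143 libraries and 60.3, 67.3 and 73.2 in DMSO libraries. The treated libraries were all far below the DMSO libraries, which varied more among themselves. The mean was 15.8 ± 0.794 CPM in ACHN SWTX-143 and 66.9 ± 6.46 CPM in ACHN DMSO, a log2 fold change of −2.10 ± 0.08, or 4.29-fold lower.

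In H226 the same gene had 65, 73 and 62 counts in SWTX-143 libraries, against 55, 40 and 62 counts in DMSO libraries. These were 6.42, 6.79 and 5.81 CPM in SWTX-143 libraries and 5.19, 3.81 and 6.83 CPM in DMSO libraries. The groups overlapped, since the third DMSO library was above every treated one. The mean was 6.34 ± 0.495 CPM in H226 SWTX-143 and 5.28 ± 1.51 CPM in H226 DMSO, with a log2 fold change of 0.27 ± 0.17. The H226 effect minus the ACHN effect was 2.37 ± 0.19. EDN2 was 2.49-fold higher in ACHN SWTX-143 than in H226 SWTX-143 and 12.7-fold higher in ACHN DMSO than in H226 DMSO, so the lines lay closer together in the presence of the inhibitor.

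EDN1, the endothelin known mainly from endothelial cells, was close to absent from both lines. It had 3, 1 and 0 counts in H226 SWTX-143 libraries, against 2, 2 and 4 counts in H226 DMSO libraries. In ACHN it had 1, 1 and 1 counts in SWTX-143 libraries, against 5, 1 and 0 counts in DMSO libraries. The treated and DMSO groups overlapped in both lines, the gene was tested in neither, and no fold change is given. EDN3, the remaining endothelin, had no count in any library.

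ECE1, the membrane metalloprotease that releases active endothelin, was abundant in both lines and differed little with treatment. In H226 it was at 112, 114 and 109 CPM in SWTX-143 libraries, against 106, 114 and 108 CPM in DMSO libraries. The groups overlapped, and the log2 fold change was 0.02 ± 0.05. In ACHN it was at 253, 240 and 228 CPM in SWTX-143 libraries, against 215, 217 and 215 CPM in DMSO libraries. All 3 treated ACHN libraries were higher than all 3 DMSO libraries, by a log2 fold change of 0.14 ± 0.04, and they were spread more widely, with a mean of 240 ± 12.7 CPM in ACHN SWTX-143 against 216 ± 1.20 CPM in ACHN DMSO. The H226 effect minus the ACHN effect was −0.12 ± 0.06. ECE1 was 2.15-fold higher in ACHN SWTX-143 than in H226 SWTX-143 and 1.98-fold higher in ACHN DMSO than in H226 DMSO.

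**Figure D1:**
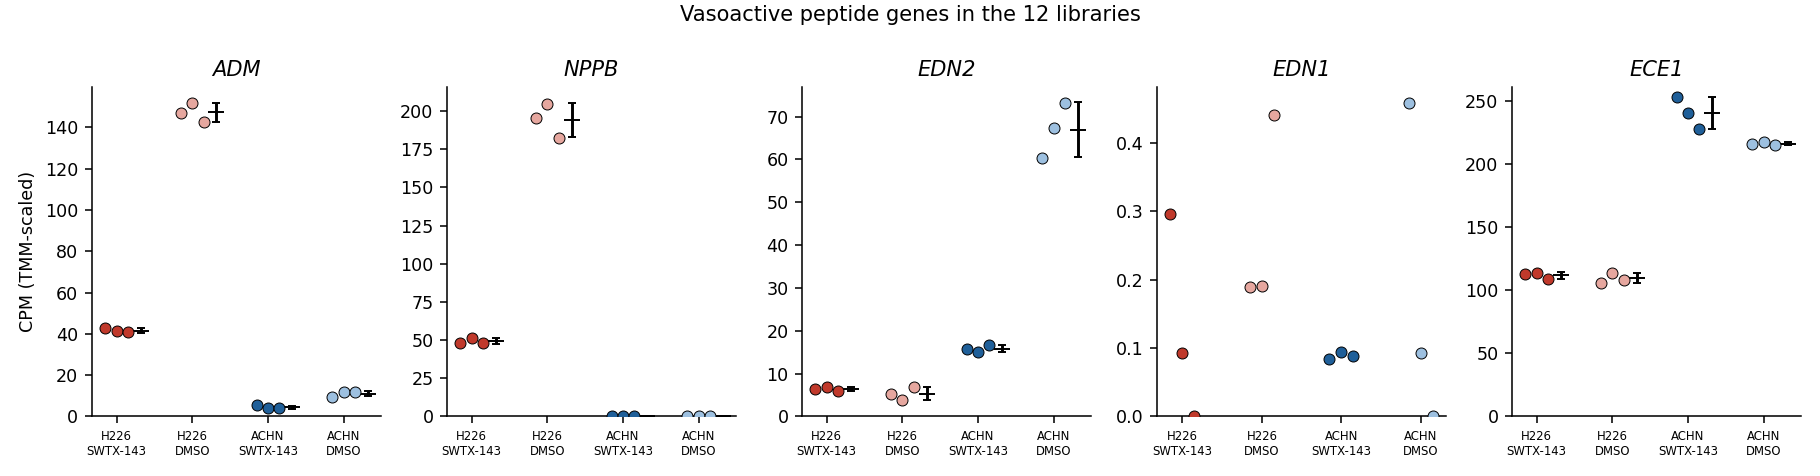
CPM of the 5 genes (linear axes from 0, 1 panel per gene with its own scale) in each library of the 4 groups; points are libraries, and the bar beside them is the mean ± SD, left out for EDN1, which rests on 0 to 5 counts per library. ADM is lower in SWTX-143 libraries of both lines, NPPB in those of H226 and EDN2 in those of ACHN, while ECE1 lies between 106 and 114 CPM in all 6 H226 libraries.

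Of the 5 genes, 4 had enough counts to be tested in H226 and 3 in ACHN; NPPB in ACHN and EDN1 in both lines did not. In H226, 2 of the 4 were called lower (ADM and NPPB) and 0 higher, where 21.6% of the 13484 tested genes were called lower and 19.0% higher at an adjusted p under 0.05. In ACHN, 2 of the 3 were called lower (ADM and EDN2) and 1 higher (ECE1), where 9.37% of the 13483 tested genes were called lower and 8.43% higher. The treated and DMSO libraries did not overlap for ADM and NPPB in H226, where 24.5% of tested genes lay lower without overlap, nor for ADM, EDN2 and ECE1 in ACHN, where 13.8% lay lower and 17.9% higher without overlap. The genes were selected on these effects, so these counts are fixed by the selection and nothing is read from them. The effect differed between lines at an adjusted p under 0.05 for 15.6% of the 14664 genes tested for that difference. Genes called lower by more than 2-fold made up 0.912% of those tested in H226 and 0.371% in ACHN. Counted from the most negative log2 fold change, NPPB was number 15 and ADM number 19 in H226, and EDN2 was number 4 and ADM number 19 in ACHN. The median log2 fold change over all tested genes was −0.0011 in H226 and 0.0013 in ACHN, and the 1st and 99th percentiles were −0.97 and 1.17 in H226 and −0.68 and 0.67 in ACHN.

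**Figure D2:**
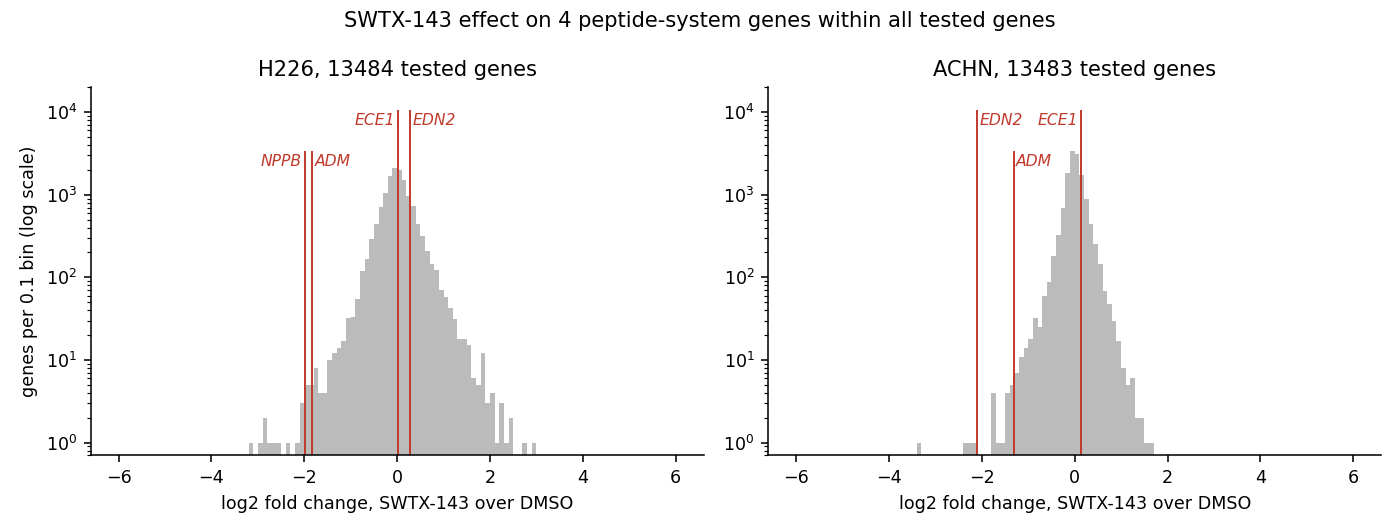
Histograms of the log2 fold change, SWTX-143 over DMSO, of all tested genes in H226 (left, 13484 genes) and ACHN (right, 13483 genes) in bins of 0.1, with gene numbers on a log axis; red lines mark the tested members of the 5 genes. NPPB and ADM in H226 and EDN2 and ADM in ACHN lie in the far left tail, and ECE1 lies near 0 in both lines.

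To set the levels of different genes side by side, CPM was divided by the length of each gene's longest protein-coding transcript, giving CPM per kilobase. On this scale NPPB was the most abundant of the 5 in H226, at 70.9 ± 3.02 in SWTX-143 and 280 ± 16.3 in DMSO libraries. ADM was next in H226 DMSO at 77.9 ± 2.43, followed by ECE1 at 21.4 ± 0.769. In H226 SWTX-143, ADM at 22.0 ± 0.514 and ECE1 at 21.9 ± 0.514 CPM per kilobase were not separated, since their ranges over libraries overlapped. EDN2 was at 5.11 ± 0.399 CPM per kilobase in H226 SWTX-143 and 4.25 ± 1.22 in H226 DMSO, and EDN1 was at 0.0639 in H226 SWTX-143 and 0.134 in H226 DMSO.

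The order in ACHN was a different one. ECE1 led in ACHN SWTX-143 at 47.1 ± 2.48 CPM per kilobase, above EDN2 at 12.7 ± 0.640 and ADM at 2.35 ± 0.407. In ACHN DMSO, EDN2 led at 53.9 ± 5.20 CPM per kilobase, above ECE1 at 42.3 ± 0.234 and ADM at 5.82 ± 0.672. The ranges of EDN2 and ECE1 did not overlap in either ACHN group. These orders depend on the transcript taken. Over the shortest protein-coding transcript, a choice added after the values were seen, ECE1 led EDN2 in both ACHN groups, at 103 ± 5.44 against 12.7 CPM per kilobase in SWTX-143 and at 92.7 ± 0.513 against 53.9 in DMSO libraries. In H226 SWTX-143 the same choice put ADM at 71.2 ± 1.66, beside NPPB at 70.9 and above ECE1 at 48.0 ± 1.13 CPM per kilobase. At the bottom, NPPB was at 0 CPM per kilobase in ACHN SWTX-143 and 0.392 in ACHN DMSO, and EDN1 at 0.0436 in ACHN SWTX-143 and 0.0904 in ACHN DMSO.

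The rest of the adrenomedullin system was split between the lines by receptor part. The receptor CALCRL was at 16.6 ± 1.67 CPM in ACHN SWTX-143 and 15.1 ± 0.515 CPM in ACHN DMSO, and near 0 in H226, at 0.191 ± 0.0943 CPM in SWTX-143 and 0.163 ± 0.194 CPM in DMSO libraries. Its partner RAMP1, which turns CALCRL into a receptor for the related peptide CGRP, was an H226 transcript, at 47.1 ± 3.04 CPM in SWTX-143 and 37.1 ± 0.836 CPM in DMSO libraries. RAMP1 rose in H226 (log2 fold change 0.33 ± 0.07, adjusted p = 4.69e-05) and had 2 pooled counts in ACHN SWTX-143 and 1 in ACHN DMSO. RAMP2, the partner that makes CALCRL an adrenomedullin receptor, was at 2.91 ± 1.02 CPM in ACHN SWTX-143 and 2.51 ± 0.537 CPM in ACHN DMSO, with overlapping groups, and at 0.0642 ± 0.0556 CPM in H226 SWTX-143 and 0.126 ± 0.109 CPM in H226 DMSO. RAMP3, the other adrenomedullin receptor partner, had no count in any library. CALCRL was thus seen together with RAMP2 in ACHN, while H226, the line with more ADM, held RAMP1 with only traces of CALCRL.

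Among the relatives of ADM, the paralogue ADM2 (intermedin) rose in H226, to 2.19 ± 0.255 CPM in SWTX-143 libraries against 1.19 ± 0.0453 CPM in DMSO libraries (0.86 ± 0.29, adjusted p = 0.0146). That call was lost without H226 SWTX-143 replicate 1 (adjusted p = 0.0638) and without H226 DMSO replicate 2 (adjusted p = 0.0514). In ACHN, ADM2 was at 11.9 ± 0.249 CPM in SWTX-143 and 9.69 ± 0.419 CPM in DMSO libraries and was not called (0.28 ± 0.11, adjusted p = 0.0801). ADM5 was not called in either line, and its locus overlaps that of the far more abundant PRMT1 on the same strand. The CGRP precursor CALCA had no count, and CALCB had at most 4 pooled counts in a group. CRCP, a protein that couples the CGRP receptor to its signal, fell in H226 by 0.20 on the log2 scale (adjusted p = 0.00632), a call lost without H226 DMSO replicate 2 (adjusted p = 0.0771). The scavenging receptor ACKR3 was seen in H226, at 1.71 ± 0.0486 CPM in SWTX-143 and 1.96 ± 0.136 CPM in DMSO libraries, and was not called. The calcitonin receptor CALCR was seen in ACHN near 1 CPM, and GPR182 had 2 counts in all. PAM, the amidating enzyme, was at 89.2 ± 3.52 CPM in H226 SWTX-143 and 86.0 ± 2.95 CPM in H226 DMSO, and at 190 ± 3.55 CPM in ACHN SWTX-143 and 182 ± 2.43 CPM in ACHN DMSO, and was called in neither line. Leaving out ADM, 1 of 6 tested genes of this list was lower and 2 higher in H226 (median log2 fold change −0.08). Among all tested H226 genes, 21.6% were lower and 19.0% higher. In ACHN, 0 of 7 were called (median 0.08), against 9.37% lower and 8.43% higher among all tested genes.

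In the natriuretic peptide system, the clearance receptor fell beside the peptide in H226. NPR3 was at 10.6 ± 0.659 CPM in H226 SWTX-143 and 25.0 ± 1.91 CPM in H226 DMSO (−1.24 ± 0.10, adjusted p = 1.46e-15). In ACHN it was near 1 CPM, at 0.740 ± 0.142 CPM in SWTX-143 and 1.11 ± 0.0970 CPM in DMSO libraries, and was not called (−0.60 ± 0.37, adjusted p = 0.289). The effects did not pass the test of their difference between lines (−0.65 ± 0.39, adjusted p = 0.300). The signalling receptor NPR1 was too low to be tested in H226, at 0.833 ± 0.416 CPM in SWTX-143 and 0.716 ± 0.472 CPM in DMSO libraries. In ACHN, NPR1 rose to 5.47 ± 0.672 CPM in SWTX-143 libraries against 3.71 ± 0.0361 CPM in DMSO libraries (0.54 ± 0.17, adjusted p = 0.0212), but the call was lost in 5 of the 6 fits that left out 1 library, with adjusted p up to 0.105. NPR2, the receptor for the C-type peptide, was not called in either line. Beyond the receptors, PDE5A, the phosphodiesterase that breaks down cyclic GMP, rose in H226 to 37.8 ± 2.56 CPM in SWTX-143 libraries against 26.7 ± 1.51 CPM in DMSO libraries (0.49 ± 0.08, adjusted p = 2.33e-07).

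The other natriuretic peptides were scarce. NPPA and NPPC averaged below 1 CPM in all 4 groups and were not tested, and NPPA overlaps CLCN6 in the annotation. CORIN, which cleaves the natriuretic precursors, was at 1.37 ± 0.284 CPM in H226 SWTX-143 and 1.75 ± 0.396 CPM in H226 DMSO and was not called. FURIN, a general precursor-cleaving protease, rose in H226 to 185 ± 5.63 CPM in SWTX-143 libraries against 163 ± 9.41 CPM in DMSO libraries (0.18 ± 0.05, adjusted p = 0.00144). In ACHN, FURIN was at 50.5 ± 2.55 CPM in SWTX-143 and 44.9 ± 1.40 CPM in DMSO libraries, without overlap. It was not called there (0.16 ± 0.06, adjusted p = 0.0677), and the effects did not differ between lines (0.01 ± 0.08, adjusted p = 0.956). Leaving out NPPB, 1 of 5 tested genes of this list was lower and 2 higher in H226 (median log2 fold change 0.18). Among all tested H226 genes, 21.6% were lower and 19.0% higher. In ACHN, 0 of 6 were lower and 1 was higher (median 0.18), against 9.37% lower and 8.43% higher among all tested genes. Nothing is read from counts this small.

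Neither endothelin receptor was expressed at a level that could be compared. EDNRB had no count in any library, EDNRA had none in H226, and in ACHN EDNRA had 5 pooled counts in SWTX-143 and 6 in DMSO libraries. ECE2, a paralogue of ECE1 with the same cleavage activity, fell in H226 to 4.43 ± 0.462 CPM in SWTX-143 libraries against 7.48 ± 1.18 CPM in DMSO libraries (−0.76 ± 0.16, adjusted p = 0.000118). In ACHN, ECE2 was at 2.46 ± 0.621 CPM in SWTX-143 and 2.35 ± 0.340 CPM in DMSO libraries, with overlapping groups. The annotation also holds a read-through gene that shares ECE2 sequence. ECE2 was the 1 tested gene of this list outside the 5 in each line.

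**Figure D3:**
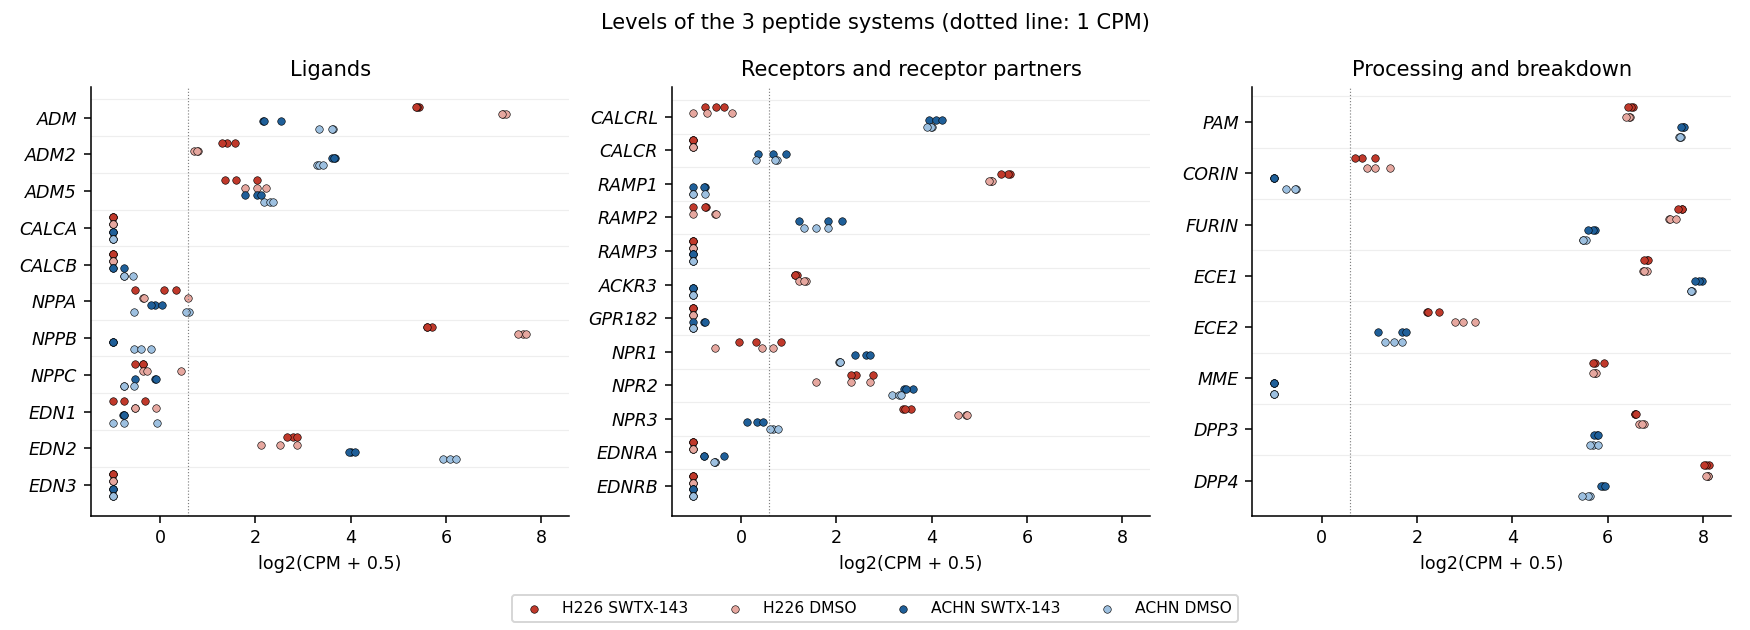
log2(CPM + 0.5) of the ligands (left), receptors and receptor partners (centre) and processing or degrading enzymes (right) of the 3 systems; each point is 1 library, with SWTX-143 libraries drawn darker and above DMSO libraries of the same line, and the dotted line marks 1 CPM. RAMP1 and MME stand out in H226 and CALCRL in ACHN, while RAMP3, EDN3 and EDNRB sit at 0 counts everywhere.

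**Figure D4:**
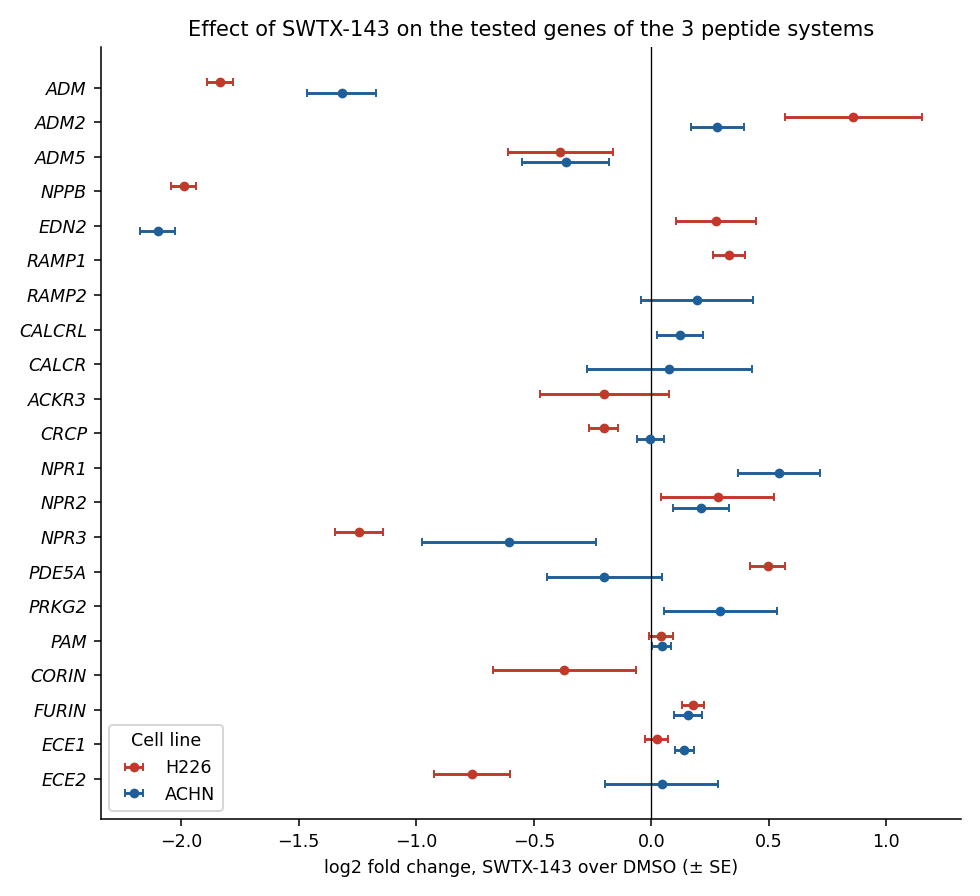
log2 fold change, SWTX-143 over DMSO, ± SE (6 libraries per line) of the tested genes of the 3 peptide systems, with H226 in red and ACHN in blue. NPPB, ADM and NPR3 are the lowest points in H226, EDN2 and ADM in ACHN, and most receptors and enzymes lie within 1 log2 unit of 0.

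Enzymes that mature or break down peptides moved in both directions around the members. In H226, 7 of 19 tested genes of that list besides ECE1 were lower and 5 higher, with a median log2 fold change of 0.04, against 21.6% lower and 19.0% higher among all tested genes. The falls were led by the oligopeptidases THOP1 (−0.57 ± 0.07, adjusted p = 2.40e-10), PREP (−0.47 ± 0.07, adjusted p = 4.66e-08) and NLN (−0.44 ± 0.07, adjusted p = 3.43e-07), of which NLN overlaps SGTB in the annotation. Neprilysin (MME), which degrades natriuretic peptides, adrenomedullin and endothelins, was at 54.7 ± 4.85 CPM in H226 SWTX-143 and 52.4 ± 1.10 CPM in H226 DMSO, was not called there, and had no count in ACHN. The number of list genes called higher in H226 was 2 without H226 DMSO replicate 3 or without H226 SWTX-143 replicate 2, 3 without H226 SWTX-143 replicate 1, and 2 by the DESeq2 Wald test.

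In ACHN, 1 of 18 tested genes of that list besides ECE1 was lower and 3 were higher (median 0.04). Among all tested ACHN genes, 9.37% were lower and 8.43% higher. DPP4, a dipeptidyl peptidase that clips the N-terminus of many peptide hormones, rose to 59.4 ± 1.89 CPM in ACHN SWTX-143 against 46.6 ± 2.80 CPM in ACHN DMSO (0.33 ± 0.06, adjusted p = 2.03e-05). The carboxypeptidase gene CPM was also higher (0.36 ± 0.09, adjusted p = 0.00247), but its locus overlaps that of MDM2, which had many more counts. The aminopeptidase ENPEP was higher (0.32 ± 0.12, adjusted p = 0.0435), a call lost in 5 of the 6 fits that left out 1 library (adjusted p up to 0.188). LNPEP was lower (−0.20 ± 0.06, adjusted p = 0.0121), a call lost in 3 of those fits (up to 0.0635).

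Of 37 other vasoactive peptides and receptors, 8 were tested in each line. In H226, 2 were lower and 2 higher (median 0.10), against 21.6% lower and 19.0% higher among all tested genes. In ACHN, 4 were lower and 0 higher (median −0.38), against 9.37% lower and 8.43% higher among all tested genes there. The oxytocin receptor OXTR fell in H226 (−0.68 ± 0.04, adjusted p = 1.18e-19) and in ACHN (−0.58 ± 0.10, adjusted p = 4.37e-06). Apelin (APLN), a vessel-widening peptide, changed in opposite directions: it rose in H226 (0.62 ± 0.17, adjusted p = 0.00300) and fell in ACHN (−0.92 ± 0.21, adjusted p = 0.000842). The bradykinin receptor BDKRB2 rose in H226 to 5.39 ± 0.297 CPM in SWTX-143 libraries against 3.18 ± 0.510 CPM in DMSO libraries (0.76 ± 0.19, adjusted p = 0.000700). Its locus overlaps a protein-coding gene on the same strand that the count tables do not list. The more abundant BDKRB1, at 150 ± 1.44 CPM in H226 SWTX-143 and 144 ± 6.21 CPM in H226 DMSO, was not called (0.06 ± 0.05, adjusted p = 0.359). The stanniocalcins, secreted regulators of calcium and phosphate, fell in ACHN, STC1 by 0.92 (adjusted p = 1.93e-13) and STC2 by 1.51 on the log2 scale (adjusted p = 8.98e-12). STC2 was also lower in H226 (−0.73 ± 0.23, adjusted p = 0.00910), where the groups overlapped and the call was lost without H226 DMSO replicate 2 (adjusted p = 0.0879) or H226 SWTX-143 replicate 1 (adjusted p = 0.0669).

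ADM and EDN1 are also known targets of hypoxia-inducible factors, and a list of such targets was counted without ADM. In H226, 5 of 25 tested genes were lower and 7 higher, with a median log2 fold change of −0.01, against 21.6% lower and 19.0% higher among all tested genes. In ACHN, 6 of 25 were lower and 4 higher, with a median of 0.02, against 9.37% lower and 8.43% higher among all tested genes. DDIT4, an inhibitor of mTORC1, rose in H226 (1.40 ± 0.06, adjusted p = 3.41e-27) and in ACHN (0.39 ± 0.06, adjusted p = 6.50e-05). The carbonic anhydrase CA9, which ARHGEF39 overlaps on the opposite strand, rose in H226 (0.54 ± 0.07, adjusted p = 1.48e-09). The glucose transporter SLC2A3 fell in H226 (−1.22 ± 0.13, adjusted p = 2.72e-11), and SLC2A1 fell in H226 (−0.46 ± 0.06, adjusted p = 6.39e-10) and in ACHN (−0.49 ± 0.05, adjusted p = 3.21e-12). In ACHN the hexokinase HK2 fell (−0.51 ± 0.06, adjusted p = 2.24e-10) and CA12 rose (1.24 ± 0.16, adjusted p = 2.99e-08). The matrix cross-linking enzyme LOX rose in H226 (0.29 ± 0.04, adjusted p = 2.93e-08) and fell in ACHN (−0.33 ± 0.04, adjusted p = 2.10e-08).

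Of 22 tested genes known as YAP and TEAD targets, 16 were lower and 0 higher in H226 (median log2 fold change −0.59), against 21.6% lower and 19.0% higher among all tested genes. In ACHN, 16 were lower and 1 higher (median −0.53), against 9.37% and 8.43%. The list was drawn up with earlier results of these data known, so these shares are a description and no test of enrichment. The exception in ACHN, named after its values were seen, was the ectonucleotidase NT5E, which was higher there (0.55 ± 0.05, adjusted p = 3.99e-12) and lower in H226 (−0.21 ± 0.06, adjusted p = 0.00234). In H226 the tissue factor gene F3 fell by 1.67 (adjusted p = 8.61e-31) and the growth factor carrier IGFBP3 by 1.15 (adjusted p = 4.84e-28) on the log2 scale. In ACHN, AMOTL2, which holds YAP at cell junctions, fell by 1.19 (adjusted p = 4.13e-31) and CRIM1, a membrane protein that binds BMPs, by 1.01 (adjusted p = 1.09e-28). IGFBP3 was also lower in ACHN (adjusted p = 2.17e-17). AMOTL2 (adjusted p = 2.07e-23) and CRIM1 (adjusted p = 4.41e-15) were also lower in H226. F3 was not called in ACHN (adjusted p = 0.770).

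**Figure D5:**
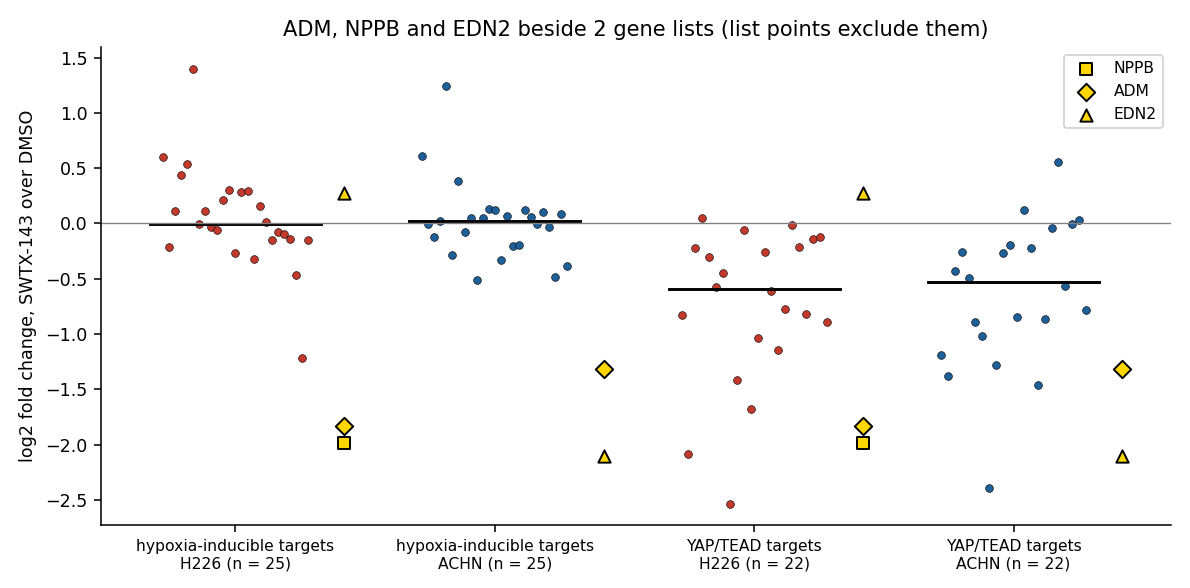
log2 fold change, SWTX-143 over DMSO, of each tested gene of the hypoxia-inducible and YAP/TEAD target lists in H226 (red) and ACHN (blue). List points leave out the 5 peptide-system genes. Beside each list, gold marks show ADM (diamond), EDN2 (triangle) and, in H226 alone, NPPB (square). Each point is 1 gene, black lines are list medians, and no test was made between lists. The hypoxia-inducible list spreads around 0 and the YAP/TEAD list lies mostly below it.

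Genes whose profile over the 12 libraries was most like that of each member were found by the Euclidean distance of centred log2 values, among 11497 genes averaging at least 5 CPM. Closest to ADM were NPR3 (distance 1.46), the matrix protein gene CCDC80 (1.66) and OXTR (1.77). All 3 were higher in H226 than in ACHN, and CCDC80 was at 2140 ± 22.1 CPM in H226 SWTX-143, 3166 ± 73.1 CPM in H226 DMSO, 205 ± 2.53 CPM in ACHN SWTX-143 and 376 ± 6.05 CPM in ACHN DMSO. Closest to EDN2 were the BMP antagonist NOG (1.54), the growth factor receptor FGFR2 (1.64) and the tight junction gene CLDN11 (1.87). FGFR2 was at 26.2 ± 1.69 CPM in ACHN SWTX-143 against 85.2 ± 1.14 CPM in ACHN DMSO, and at 13.2 ± 1.99 CPM in H226 SWTX-143 against 15.7 ± 1.77 CPM in H226 DMSO. Closest to ECE1 were ESYT1 (0.155), TGM2 (0.194) and PAM (0.203). The distances take in the difference between the lines as well as that between treatments, and the genes were picked for their likeness to the members, so their values carry no test here.

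Of the endothelial, cardiomyocyte and immune markers, the receptor gene KDR in H226 and the lysosomal protein gene CD68 in ACHN were the most abundant. In ACHN the 8 mesothelial markers summed to between 190 and 197 CPM in SWTX-143 libraries and between 224 and 227 CPM in DMSO libraries. Most of this was LRRN4, at 149 ± 4.01 CPM in ACHN SWTX-143 and 177 ± 0.386 CPM in ACHN DMSO. The 10 endothelial markers summed to between 157 and 172 CPM in H226 SWTX-143 libraries and between 224 and 235 CPM in H226 DMSO libraries. Nearly all of this was KDR, at 157 ± 7.54 CPM in H226 SWTX-143 and 224 ± 5.85 CPM in H226 DMSO, while the defining PECAM1, VWF and CDH5 averaged below 1 CPM in every group. In ACHN the endothelial sum was between 3.15 and 3.29 CPM in SWTX-143 and at most 3.48 CPM in DMSO libraries. The 6 immune markers, of which PTPRC had no count in any library, summed to between 20.8 and 24.6 CPM in H226 SWTX-143 and between 15.6 and 18.0 CPM in H226 DMSO, and to between 62.9 and 72.0 CPM in ACHN SWTX-143 and between 48.0 and 51.8 CPM in ACHN DMSO. CD68 made up most of the ACHN sum, at 59.9 ± 4.56 CPM in ACHN SWTX-143 and 44.1 ± 1.70 CPM in ACHN DMSO, groups that did not overlap. The part of these markers in the peptide results was not tested. Of the 5 genes, ADM, NPPB, EDN1 and EDN2 overlap no other annotated gene, and ECE1 overlaps 2 antisense genes that the count tables do not list.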

How the data were processed

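Poly(A) RNA of 12 libraries (2 lines, 2 treatments, 3 libraries each) was analysed from the deposited tables, in which the authors give raw whole-number counts per gene symbol, 1 table per line. The tools, per the submitters' processing notes, were FastQC, cutadapt and STAR 2.6.1d, with the build hg19 (GRCh37). How reads were counted, by strand or not and on which annotation, is not given in the sources used here. Reads of overlapping genes may therefore be mixed, and overlaps were looked up in GENCODE 29 for the genes named.

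SWTX-143 was compared with DMSO within each line by edgeR 4.0.16 under R 4.3.3 (filterByExpr, TMM, robust quasi-likelihood F test, Benjamini-Hochberg over all tested genes, called under 0.05). A contrast in a joint fit of 12 libraries (14664 genes) gave the H226 effect minus the ACHN effect. Every adjusted p without another tool's name comes from these fits, and each SE is the log2 fold change divided by the root of its F. The fits were also run on simulated counts with known changes, in which all genes shared the same dispersion. Genes of real libraries differ in spread, so no support is drawn from that run. CPM used TMM factors of all 12 libraries (0.933 to 1.066). Replicates were not copies: chi-square per degree of freedom of their counts was 1.36 to 3.42.

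The 5 genes, the gene lists and the markers were chosen with earlier results of these data known. The shares called within each list are therefore a description and no test. Named from each list were up to 4 called genes per line with the smallest p, all ligands and receptors of the 3 systems, and the 3 nearest profiles per member tested in both lines (log2 of CPM + 0.5). Replicate numbers recur in all groups but were not used as pairs. Alternatives were upper-quartile, library-size and DESeq2 1.42.0 scaling, the DESeq2 Wald test, no filter, a replicate block, a joint fit, leaving out each library and, for levels per kilobase, the shortest transcript, added after the values were seen. The NF2 gene's own RNA was not analysed here.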

Additional observations from a re-analysis of the deposited data

Results flagged for a closer look

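The value given here is the H226 effect of SWTX-143 minus the ACHN effect on the log2 scale. It was looked at for the members and the list genes named for a small p, where tested in both lines. Those that differed between the lines at an adjusted p under 0.05 are given. Genes named in the text for another reason, such as FGFR2 and NT5E, were not screened. For the members the difference was −0.52 for ADM and 2.37 for EDN2, a description only, since both were selected on their effects in each line. Most of the other genes were named for a small p in 1 line, so their number is not set against all tested genes.

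Among enzymes of peptide signalling and breakdown, it was 0.69 for PDE5A (adjusted p = 0.0413), −0.81 for ECE2 (adjusted p = 0.0449), −0.45 for THOP1 (adjusted p = 1.84e-05), −0.47 for PREP (adjusted p = 0.000197), −0.38 for NLN (adjusted p = 0.000358) and −0.37 for DPP4 (adjusted p = 3.72e-05). In each of these 6 genes a change was called in 1 of the lines and not in the other. The peptide APLN, which rose in H226 and fell in ACHN, had 1.54 (adjusted p = 1.04e-05).

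LOX, which rose in H226 and fell in ACHN, had 0.61 (adjusted p = 1.45e-13). Among other hypoxia-inducible genes the difference was 1.00 for DDIT4 (adjusted p = 1.05e-10), −1.31 for SLC2A3 (adjusted p = 5.47e-09), 0.82 for CA9 (adjusted p = 0.0475) and 0.45 for HK2 (adjusted p = 0.000152). Among YAP and TEAD targets it was −1.49 for F3 (adjusted p = 0.000602), 0.36 for AMOTL2 (adjusted p = 1.83e-06) and 0.56 for CRIM1 (adjusted p = 1.45e-13). F3 was scarce in ACHN, at 0.483 ± 0.189 CPM per kilobase in SWTX-143 and 0.557 ± 0.158 in DMSO libraries, against 80.0 ± 1.15 in H226 DMSO. CA9 was scarce there too, with 44 pooled counts in ACHN SWTX-143 and 52 in ACHN DMSO. These 2 differences therefore rest on few ACHN counts. The calls for ECE2, CA9 and PDE5A did not hold when single libraries were left out, being lost in 8, 7 and 5 of 12 such fits.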

How the results depend on the processing

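The direction of every member tested held under all 13 alternatives per line. ADM stayed between −1.85 and −1.78 in H226 and between −1.47 and −1.24 in ACHN on the log2 scale, NPPB between −2.03 and −1.94 in H226, and EDN2 between −2.17 and −2.03 in ACHN. EDN2 in H226 lay between 0.08 and 0.49. ECE1 lay between 0.0024 and 0.07 in H226, and between 0.10 and 0.18 in ACHN. Leaving out 1 library gave 4753 to 5365 called genes in H226 (5486 with all), 1841 to 2174 in ACHN (2401 with all) and 1780 to 2253 for the difference (2286 with all). The DESeq2 Wald test called fewer genes in each comparison, 3896 in H226, 1492 in ACHN and 1560 for the difference. The cause was not tested. The split of lower and higher calls turned with the scaling. It was 2324 lower and 3283 higher in H226 under upper-quartile scaling, against 2919 and 2567 under TMM, and 977 lower and 1537 higher in ACHN under library size alone, against 1264 and 1137. The replicate numbers did not pair the libraries: deviations of same-numbered libraries correlated at −0.05, 0.07 and 0.04 in H226 and −0.08, −0.11 and −0.02 in ACHN, and with a replicate block 5744, 2146 and 2328 genes were called in H226, ACHN and the difference. Of the checks of other named genes, 796 kept a call, 59 lost one, 501 stayed without one, 24 gained one and 0 reversed. Levels per kilobase of ADM and ECE1 moved with the transcript length taken, a choice added after the data were seen. Depth limits NPPB in ACHN and EDN1 in both lines, which rest on at most 5 counts per library.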
